A study of Anopheles merus and Anopheles coluzzii with 36 samples.

Results

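The 22 genes described here stood higher in larvae of Anopheles coluzzii held at 50% of the salinity of seawater than in those held in fresh water, and stayed nearly level in larvae of Anopheles merus at every salinity tested. They were chosen from the measured values. Expression was taken as L, the log2 of a group's mean CPM (a gene's reads relative to the size of its library) plus 0.5. A gene was a member if its mean over all libraries was at least 5 CPM, if L in An. coluzzii was at least 1.5 higher at 50% than at 0%, and if L in An. merus at 10, 20, 30, 40 and 50% was always within 0.5 of its value at 0%. Of the 10905 genes measured, 8758 had a mean of at least 5 CPM, and 238 of those met the bound on the rise in An. coluzzii (2.72%). The 22 members were 9.24% of these 238, the other 216 having moved by 0.5 or more in An. merus at 1 salinity or more.

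Whole larvae were sequenced from 36 pools of 35 to 50 larvae, 3 pools for each of 6 salinities in each of the 2 species. At 18 h after hatching in fresh water, all larvae were moved for 6 h to 0, 10, 20, 30, 40 or 50% of the salinity of seawater; the labels set the groups apart by salinity and species alone. An. coluzzii, a stenohaline mosquito, was the species in which the members were higher, and An. merus, a euryhaline one, was the species in which they were level. In 5 of the 22 genes that level was under 1 CPM in every An. merus group. The libraries held 9174563 to 24835904 reads, and 15369828 or more in every An. coluzzii library. Separate cultures for the pools of a group are not stated, so p-values measure the spread among these pools alone. In whole larvae a change in RNA per cell and a change in the number of cells cannot be told apart. The column of library C of An. coluzzii at 50% is named for 1 of 5 lane parts, and what the column holds of the others is not stated. Without that library the rule gave 20 genes, all 20 of them among the 22. Without library A of An. merus at 0% it gave 36 genes, 18 of them among the 22.

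Mosquito larvae in fresh water gain water and lose ions, and keep their haemolymph more concentrated than the water by taking up ions through the anal papillae and by recovering them in the Malpighian tubules and rectum. In water saltier than the haemolymph the balance turns round, and larvae of salt-tolerant species can secrete a concentrated urine, while larvae of freshwater species let the haemolymph follow the water. In anopheline larvae the rectum is known to take part in this switch through the sites at which ion pumps are placed in its cells. The identifiers of the measured genes came with no names, so no gene below is given a role, a position or a sequence.

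Within the set, the level at 50% over that at 0% in An. coluzzii ran from 2.85-fold to 21.3-fold on the L scale, with a median difference of 2.19, against -0.06 over all 8758 genes with a mean of at least 5 CPM. All 3 libraries at 50% lay above all 3 at 0% for each of the 22 genes, as they did for 31.8% of the 8758. This contrast chose the genes, so nothing is read from it. AGAP008274 and AGAP007229 had the largest differences, 4.41 and 4.16. The smallest were those of AGAP001448 and AGAP003180, 1.51 and 1.53, and the genes just under the bound were AGAP009164 at 1.49 and AGAP011796 at 1.48. Just past the bound on An. merus stood AGAP008650 and AGAP002536, with largest changes there of 0.501 and 0.504. AGAP012234 and AGAP001448 were just inside it, each at 0.49.

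**Figure D1:**
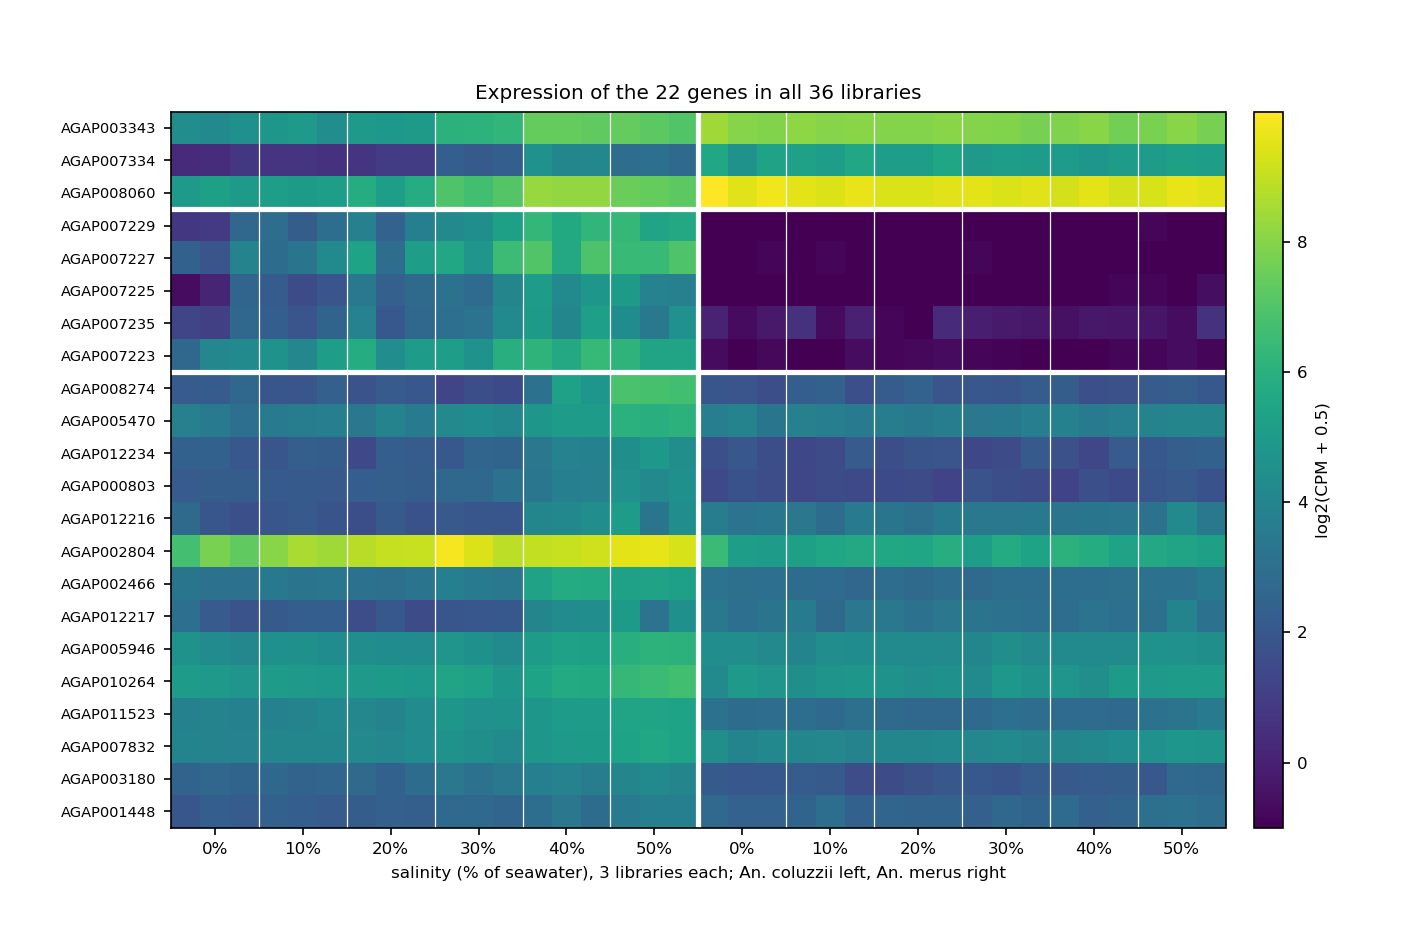
Each cell is log2(CPM + 0.5) of 1 gene (down the page) in 1 library (across it), with the 18 An. coluzzii libraries on the left and the 18 An. merus libraries on the right, both by salinity from 0 to 50% of seawater. White lines part the 3 genes that were higher in An. merus in every group, the 5 genes near 0 in An. merus and the other 14 genes.

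Smaller changes in An. merus were within the bound. There the group mean was highest at 50% in 15 of the 22 genes, against 39.1% of the 8758, and L at 50% was above that at 0% by up to 0.49. For 3 of the 15, AGAP007223, AGAP007225 and AGAP007229, the mean at 50% rested on 4, 3 and 1 reads in the group, too few to place a maximum. All 3 An. merus libraries at 50% lay above all 3 at 0% for 6 of the 22, against 32.9% of the 8758. These values also belong to the contrasts that chose the genes.

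The 22 genes differed in how their level in An. merus compared with that in An. coluzzii, and they are described in 3 groups drawn after the values were seen. In 3 genes every An. merus group mean lay above every An. coluzzii group mean, which held for 620 of the 8758 genes (7.08%). In 5 genes every An. merus group mean lay under 1 CPM, which held for 18 of the 8758 genes (0.206%) and for 0 of the other 216 genes that met the bound in An. coluzzii. The remaining 14 genes stood above 1 CPM in every group of both species.

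AGAP008060, AGAP003343 and AGAP007334 were the 3 genes with a higher level in An. merus throughout. AGAP008060 had mean levels of 32.7, 33.7, 49.1, 119, 302 and 167 CPM in An. coluzzii at 0, 10, 20, 30, 40 and 50%. Its libraries at 10% measured 34.6, 31.5 and 35 CPM, those at 40% 310, 297 and 298 CPM and those at 50% 185, 168 and 148 CPM. In An. merus the 18 libraries had a lowest value of 628 CPM, a median of 714 CPM and a highest of 1021 CPM. The highest An. coluzzii library was therefore under the lowest An. merus library, and the An. coluzzii mean was 4.54% of the An. merus mean at 10%, 45.0% at 40% and 23.6% at 50%.

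AGAP003343 followed the same order of groups up to 40%, and its libraries at 40 and 50% overlapped. Its group means in An. coluzzii were 20.5, 26.2, 29.9, 70.1, 166 and 149 CPM with rising salinity. Its libraries at 40% measured 168, 168 and 161 CPM, against 28.1, 30.3 and 20.3 CPM at 10%, and those at 50% 169, 151 and 127 CPM. The An. merus libraries ran from 201 to 342 CPM with a median of 251 CPM, and the An. coluzzii mean was 9.90% of the An. merus mean at 10%, 71.6% at 40% and 64.3% at 50%.

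AGAP007334 had the sharpest maximum of the set at 40%. Its group means in An. coluzzii were 0.923, 1.08, 1.32, 4.17, 18.5 and 7.03 CPM with rising salinity. The libraries at 40% measured 22.8, 16.1 and 16.4 CPM, against 1.12, 1.12 and 1.0 CPM at 10%, and those at 50% 7.17, 7.55 and 6.36 CPM. None of the 3 ranges overlapped, and the mean at 40% was 2.63 times that at 50%. In An. merus the libraries ran from 24.7 to 46.5 CPM with a median of 34.5 CPM, and the An. coluzzii mean was 2.73% of that of An. merus at 10%, 59.9% at 40% and 19.9% at 50%.

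**Figure D2:**
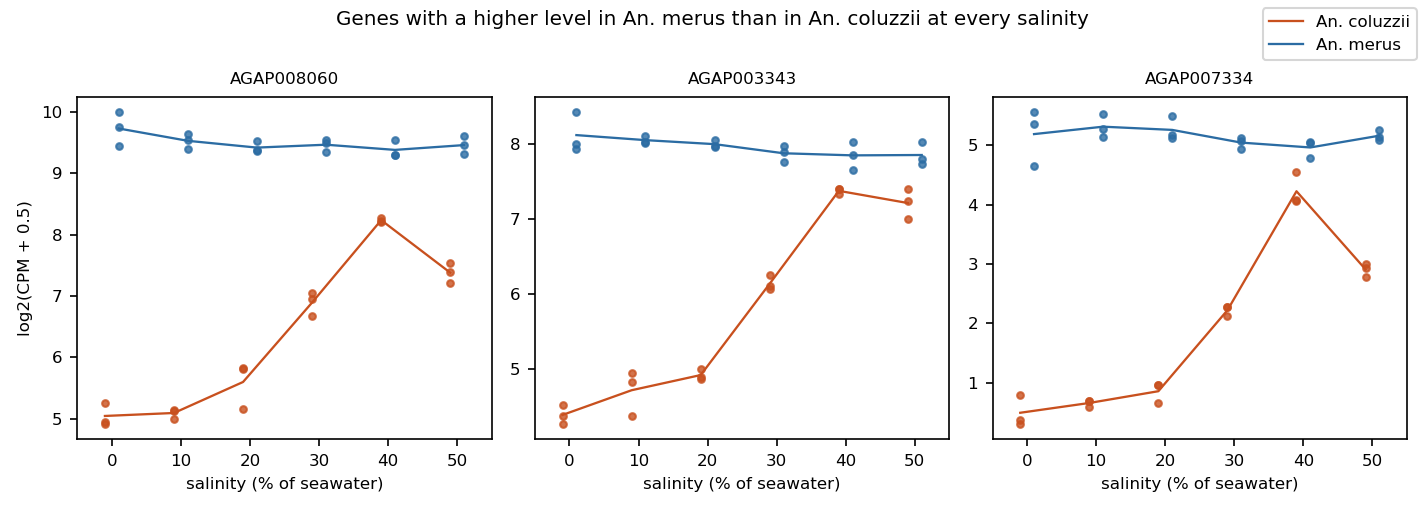
Level in log2(CPM + 0.5) against salinity in percent of seawater for AGAP008060, AGAP003343 and AGAP007334, with points for libraries and lines through the means of these log2 values in An. coluzzii and An. merus. The An. coluzzii points climb towards the An. merus points, come nearest at 40% and in no group reach the An. merus mean.

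The 5 genes near 0 in An. merus were AGAP007223, AGAP007225, AGAP007227, AGAP007229 and AGAP007235. Together they had 45152 reads in the An. coluzzii libraries and 131 in the An. merus libraries, of which 107 were of AGAP007235. AGAP007229 had 1 read in the 18 An. merus libraries, and 17 of these libraries had none. At 0 reads the data allow up to 3, or 0.114 to 0.348 CPM by library, counting error alone considered. That limit is for 1 library, not for a group mean. AGAP007235 had An. merus group means of 0.274 to 0.530 CPM, from 14 to 23 reads a group, and 1 of the 18 libraries had none. The other 4 genes had 0 to 4 reads in each An. merus group. With 0.5 added before the logarithm their L could hardly move, its largest change in An. merus being 0.0456 to 0.195. These 4 genes thus met the bound on An. merus by being near 0.

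In An. coluzzii, AGAP007229 had group means of 2.74, 6.23, 10.4, 25.5, 67.9 and 57.3 CPM with rising salinity. Its libraries at 40% measured 77.1, 50.6 and 76.1 CPM (B, C and D), against 7.19, 4.17 and 7.33 CPM at 10% (A, B and C). The libraries at 50% measured 80.6, 42.6 and 48.8 CPM, against 1.24, 1.32 and 5.68 CPM at 0%. Neither pair of groups overlapped, although the libraries within each group differed up to several fold.

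AGAP007227 had group means of 7.56, 11.4, 27.4, 55.7, 99.9 and 99.2 CPM in An. coluzzii with rising salinity. At 40% its libraries measured 128, 49.9 and 122 CPM, against 6.92, 9.23 and 18.1 CPM at 10%. These groups did not overlap either. AGAP007223 had 67.7 ± 16.3 CPM at 40%, against 25.0 ± 8.95 CPM at 10%, AGAP007225 had 26.5 ± 7.11 CPM, against 3.25 ± 0.913 CPM, and AGAP007235 had 27.7 ± 10.6 CPM, against 4.27 ± 1.03 CPM (SD, n = 3 each). AGAP007225 had the widest spread of the 22 genes at 0%, with libraries at 0.148, 0.612 and 5.47 CPM, a range of 3.2 on the log2 scale. By group mean, all 5 genes were highest at 40%, but in each of them the libraries at 40% overlapped those at 50%.

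At 4 of the 6 salinities the highest or the lowest library was the same in all 5 genes. Library A was highest and B lowest at 20% in 5 of 5 genes, library C was highest at 30% in 5 of 5, library C was lowest at 40% in 5 of 5, and library D was highest at 0% in 5 of 5. At 10% library C was highest and B lowest in 4 of 5 genes. At 50% no library was shared, with A highest in 3 genes and lowest in 1, B lowest in 2, and C highest in 2 and lowest in 2. Their pooled SD between the libraries of an An. coluzzii group was 0.611 to 0.899 on the log2 scale, against 0.165 to 0.206 in the 3 genes that were higher in An. merus and a median of 0.148 over the 8758 genes. The 5 genes are not taken as independent readings. The counts of genes given here still include each of them, and no count was made with them merged.

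**Figure D3:**
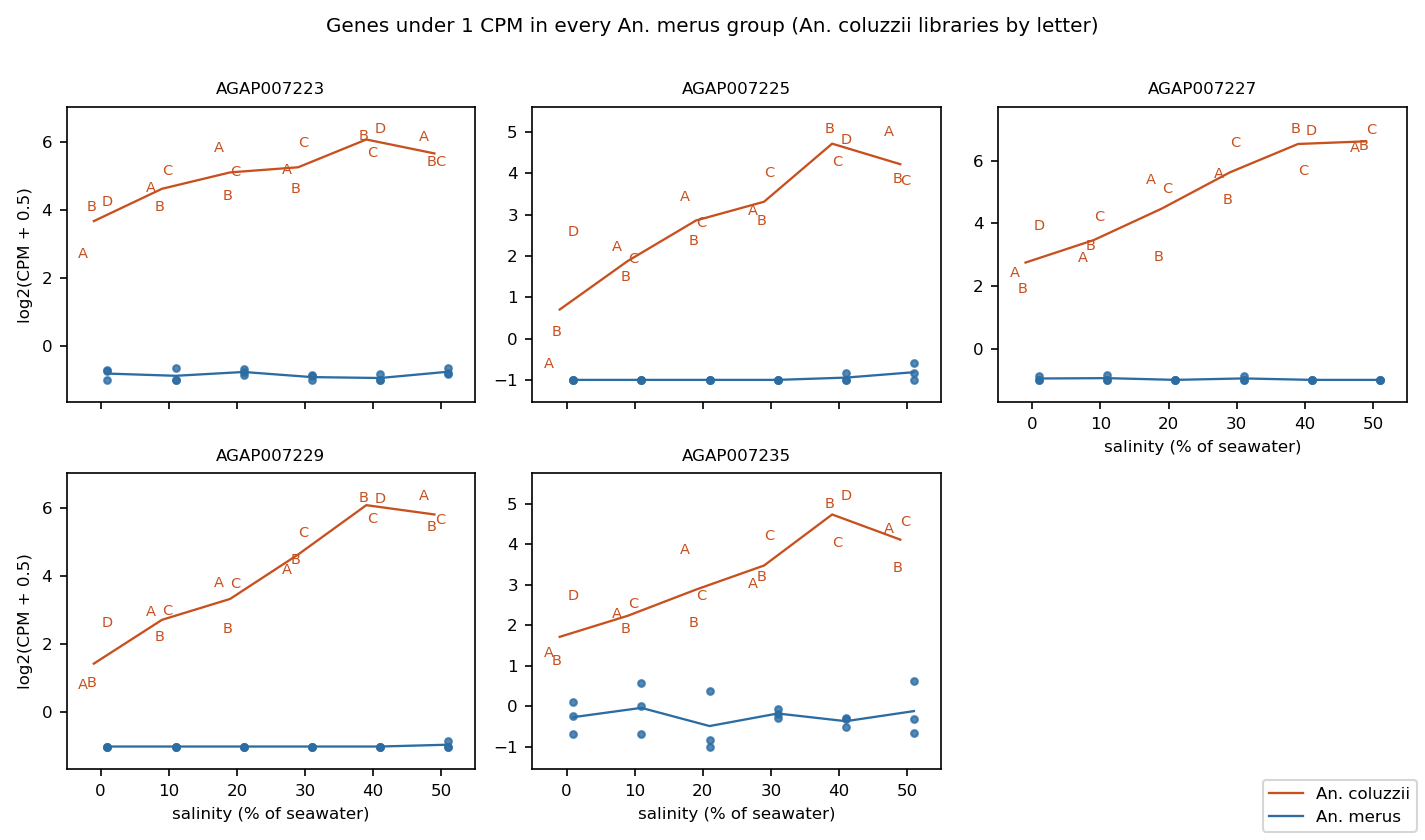
Level in log2(CPM + 0.5) against salinity in percent of seawater for the 5 genes under 1 CPM in every An. merus group. Letters are An. coluzzii libraries and points An. merus libraries, with lines through the means of these log2 values. The value of a gene with no read is -1. At 20% letter A is on top and B at the bottom in all 5 genes, while at 50% the order of letters differs from gene to gene.

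The identifiers of these 5 genes lie within a run of 14 consecutive numbers, AGAP007223 to AGAP007236, in which every gene was under 1 CPM in every An. merus group. Of all 10905 genes, 404 (3.70%) met that bound, in 350 runs, and the next longest run held 5 genes. The 14 genes had 54757 reads in An. coluzzii and 153 in An. merus. All 14 were highest at 40% in An. coluzzii by group mean, and 13 of them stood at least 1.5 above 0% on the L scale there. Of the 9 that were not members, 8 had a mean under 5 CPM, and AGAP007231 had a difference of only 0.72 between 50 and 0%. Across the run, library B was lowest at 20% and library C highest at 30% in all 14. Whether consecutive numbers mark neighbouring genes is not stated, and whether reads of An. merus can be assigned to these genes by the authors' alignment was not tested.

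The other 14 genes were expressed in both species. AGAP008274 stood out among them by its late and steep course, with group means of 4.65, 3.76, 3.49, 2.27, 24.6 and 109 CPM in An. coluzzii with rising salinity. The libraries at 50% measured 116, 109 and 102 CPM, against 3.91, 4.05 and 5.99 CPM at 0%. Those at 40% lay wide apart, at 8.02, 38.7 and 27.0 CPM in libraries B, C and D, all of them above 1.94, 2.61 and 2.27 CPM at 30%. In An. merus no library passed 4.96 CPM, the median being 3.57 CPM, so the species did not overlap at 40 and 50%.

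AGAP012216 and AGAP012217, whose numbers are consecutive, gave almost the same values. AGAP012217 had group means of 4.81, 4.19, 2.86, 3.46, 18.5 and 20.7 CPM in An. coluzzii with rising salinity, and AGAP012216 had 4.18, 3.36, 3.10, 3.51, 17.9 and 20.8 CPM. At 50% the libraries A, B and C measured 31.4, 8.62 and 22.2 CPM for AGAP012217 and 32.0, 9.13 and 21.3 CPM for AGAP012216. The ratio of their reads lay between 0.718 and 1.34 in all 36 libraries, with a median of 1.05. Whether the genes share reads was not tested, so they are uncertain as separate measurements. The counts of genes given here still include both. In An. merus the medians were 8.52 CPM for AGAP012217 and 9.63 CPM for AGAP012216, above every An. coluzzii library at 10, 20 and 30% and under every one at 40%.

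AGAP002466 had its largest step from 30 to 40%, with 8.57, 9.5 and 8.27 CPM in An. coluzzii at 0, 10 and 20%, and it had 11.3, 48.8 and 38.3 CPM at 30, 40 and 50%. Its libraries at 40% measured 40.3, 53.3 and 52.7 CPM, against 12.9, 10.9 and 9.99 CPM at 30%. In An. merus its libraries ran from 5.74 to 10.5 CPM. It was the only 1 of the 14 genes with its highest An. coluzzii mean at 40%.

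AGAP005470 had group means of 10.4, 11.9, 11.8, 18.3, 31.1 and 62.8 CPM in An. coluzzii with rising salinity. Its libraries at 50% measured 64.1, 58.8 and 65.6 CPM, against 13.1, 10.6 and 7.52 CPM at 0%, and the An. merus libraries ran from 9.31 to 15.5 CPM. The highest An. merus library was thus under the lowest of An. coluzzii at 30, 40 and 50%.

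AGAP002804 was, with AGAP007223, 1 of the 2 genes whose largest step was that from 0 to 10%. Its group means in An. coluzzii were 162, 333, 506, 692, 545 and 719 CPM with rising salinity. The libraries at 10% measured 263, 390 and 345 CPM, all above those at 0%, which measured 104, 222 and 159 CPM. In An. merus 17 of 18 libraries lay between 31.8 and 66.7 CPM, and library A at 0% measured 90.2 CPM, so every An. coluzzii library was above every An. merus one.

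**Figure D4:**
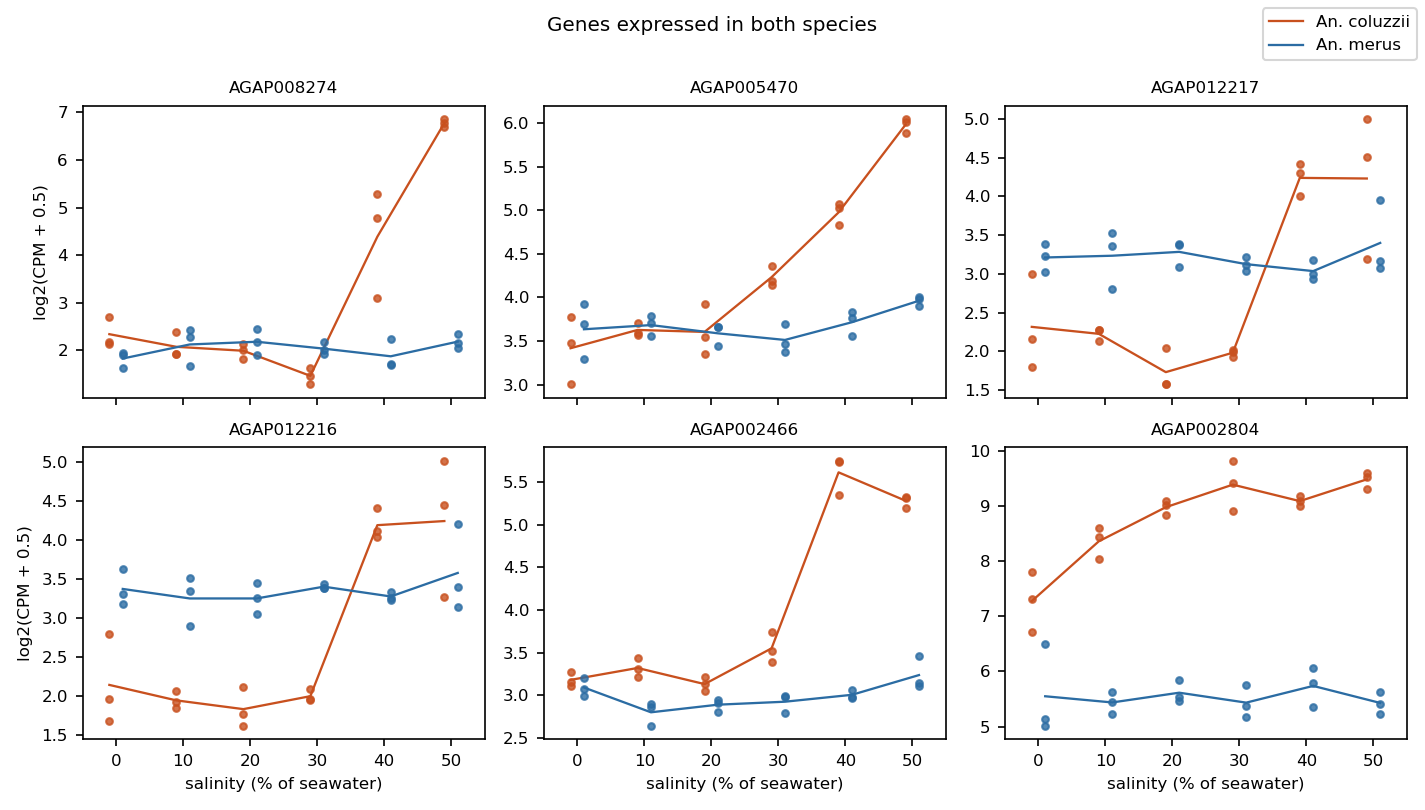
Level in log2(CPM + 0.5) against salinity in percent of seawater for 6 genes expressed in both species, with points for libraries and lines through the means of these log2 values in An. coluzzii and An. merus. The An. coluzzii points at 40% lie above those at 30% in the 5 genes other than AGAP002804, whose An. coluzzii points lie above the An. merus points at every salinity.

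The remaining 8 genes, among them AGAP012234, AGAP001448 and AGAP003180, had smaller differences of 1.51 to 2.32 between 50 and 0% on the L scale. Their means in An. coluzzii were 12.3 to 91.3 CPM at 50%, against 3.98 to 30.0 CPM at 0%. All 8 were highest at 50% in An. coluzzii, and all 8 were also highest at 50% in An. merus, where the difference between 50 and 0% was 0.24 to 0.49. In An. coluzzii AGAP012234 had 24 ± 4.13 CPM at 50%, against 4.39 ± 0.791 CPM at 0%, and in An. merus it had 4.34 ± 0.656 CPM at 50%, against 2.94 ± 0.479 CPM at 0% (SD, n = 3 each).

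By group mean, 9 genes were highest at 40% and 13 at 50%, unevenly over the 3 groups of genes. The 9 were all 5 genes near 0 in An. merus, all 3 that were higher in An. merus, and AGAP002466. In the 5 genes near 0 in An. merus and in AGAP003343 the libraries at 40 and 50% overlapped. Their maximum at 40% is thus within the spread of the libraries. AGAP012216 and AGAP012217, highest at 50%, overlapped as well. AGAP002804, also highest at 50%, had libraries of 637 to 780 CPM there, which overlapped those at 30%, at 483 to 907 CPM. Of the other 216 genes that met the bound in An. coluzzii, 49 were highest at 40%, 166 at 50% and 1 at 30%. A difference from 0% of at least 1.5 on the L scale was reached at 10% by 0 of the 22 genes (0.0228% of the 8758), at 20% by 4 of the 22 genes, at 30% by 9 and at 40% by 14. The same difference was reached by 0.114% of the 8758 genes at 20%, by 0.982% at 30% and by 2.55% at 40%, and by 2, 25 and 88 of the other 216 genes. The step from 30 to 40% was the largest single step in 12 of the 22 genes and that from 40 to 50% in 5. On the L scale, the difference at 40% was 105 to 155% of that at 50% in the 3 genes that were higher in An. merus, 100 to 127% in the 5 near 0 there and 42.6 to 116% in the other 14.

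Groups of An. coluzzii other than 0 and 50% entered the choice of the genes only through the minimum mean. They were compared with limma on log2(CPM + 0.5). P-values were adjusted over all 10905 genes (Benjamini-Hochberg), with a threshold of 0.05. At 40% over 10%, 22 of 22 genes rose. Of all genes 29.8% rose and 33.5% fell, and of the other 216 genes that met the bound in An. coluzzii 208 rose. The median log2 fold change of the 22 genes was 1.77, with a range of 0.65 to 3.57, against -0.03 over all genes. In log2 units AGAP007334 rose most, by 3.57 ± 0.17 (SE; limma adjusted p = 4.7e-16), and AGAP007229 by 3.36 ± 0.35 (SE; limma adjusted p = 3e-09). In 7 of the 22 genes the mean over the 10 groups other than An. coluzzii at 40 and 50% was under 5 CPM. AGAP007229, at 4.48 CPM, was among them. These 7 genes reached the minimum mean through those groups, 1 of which is in this comparison. Their rise here was thus in part fixed by the choice. The other 15 rose too. AGAP002804 rose by 0.73 ± 0.28 (SE; limma adjusted p = 0.026), and this call was lost without library C or D at 40% or library A at 10%, with adjusted p-values of 0.054, 0.068 and 0.12 in limma. It was also lost with quantile normalization (limma adjusted p = 0.083) and with library totals (limma adjusted p = 0.16), as was that of AGAP010264 with library totals (limma adjusted p = 0.13).

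Between neighbouring salinities the genes passed the threshold at different steps. At 20% over 10%, 0 of 22 genes passed the threshold in limma, against 0.44% of all genes higher and 0.614% lower. At an unadjusted p under 0.05, 4 genes were higher and 0 lower, edgeR called 0 genes and DESeq2 called 1. That 1 gene was AGAP008060, with 49.1 ± 12 CPM at 20% and 33.7 ± 1.92 CPM at 10% (SD, n = 3 each) and a limma adjusted p of 0.073. Its libraries at 20% measured 55.8, 35.2 and 56.3 CPM, and without library B it passed the threshold in limma (adjusted p = 0.0082).

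At 30% over 20%, 10 of 22 genes rose and 0 fell, against 9.55% of all genes higher and 12.5% lower and 83 of the other 216 genes higher. All 3 genes that were higher in An. merus rose, by 1.22 to 1.36 on the log2 scale. AGAP007334 rose by 1.36 ± 0.17 (SE; limma adjusted p = 1.4e-06). Of the 5 genes near 0 in An. merus, 1 rose, AGAP007229, by 1.30 ± 0.35 (SE; limma adjusted p = 0.0078). It lost its call without library C at 30% (a log2 fold change of 1.0; adjusted p = 0.068 in limma), without library B at 20% (0.86; adjusted p = 0.091 in limma) and in DESeq2 (1.29; adjusted p = 0.096). Of the other 14 genes, 6 rose, by 0.39 to 0.63, AGAP001448 at a limma adjusted p that rounds to 0.05 and not with the replicate letter as a block (adjusted p = 0.056 in limma) or in any of the 6 fits that left out 1 of the libraries compared.

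At 40% over 30%, 18 of 22 genes rose and 0 fell, against 18.9% of all genes higher and 21.4% lower and 163 of the other 216 genes higher. The 7 genes that reached the minimum mean through An. coluzzii at 40 and 50%, AGAP008274 among them, are high by that choice in 1 arm of this comparison as well, and of the other 15 genes 11 rose. AGAP008274 rose most, by 2.92 ± 0.31 (SE; limma adjusted p = 1.6e-08), and by 3.57 without library B at 40%. AGAP012217 rose by 2.25 ± 0.30 (SE; limma adjusted p = 8.1e-07). All 3 genes that were higher in An. merus rose by 1.24 to 2.0. Of the 5 genes near 0 there, 3 rose. AGAP007225 and AGAP007235 lost their calls without library B at 40% or library A or B at 30%, and AGAP007235 also without library D at 40%. Both also lost them with a pseudocount of 0.1. The replicate letter as a block ended both (limma adjusted p = 0.071 and 0.064), as did DESeq2 (adjusted p = 0.21 and 0.12). AGAP007225 also lost its call in edgeR (adjusted p = 0.051) and with An. coluzzii fitted alone (limma adjusted p = 0.066). The libraries of AGAP007235 at 40 and 30% overlapped. The 4 genes that did not pass were AGAP007223, AGAP007227, AGAP010264 and AGAP002804, the last of these with 545 ± 36.1 CPM at 40% and 692 ± 212 CPM at 30% (SD, n = 3 each). The count was 13 without library B at 30%. With library totals AGAP001448, AGAP003180 and AGAP011523 lost their calls (limma adjusted p = 0.25, 0.098 and 0.19). Each of these genes also lost its call in several fits that left out 1 library.

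**Figure D5:**
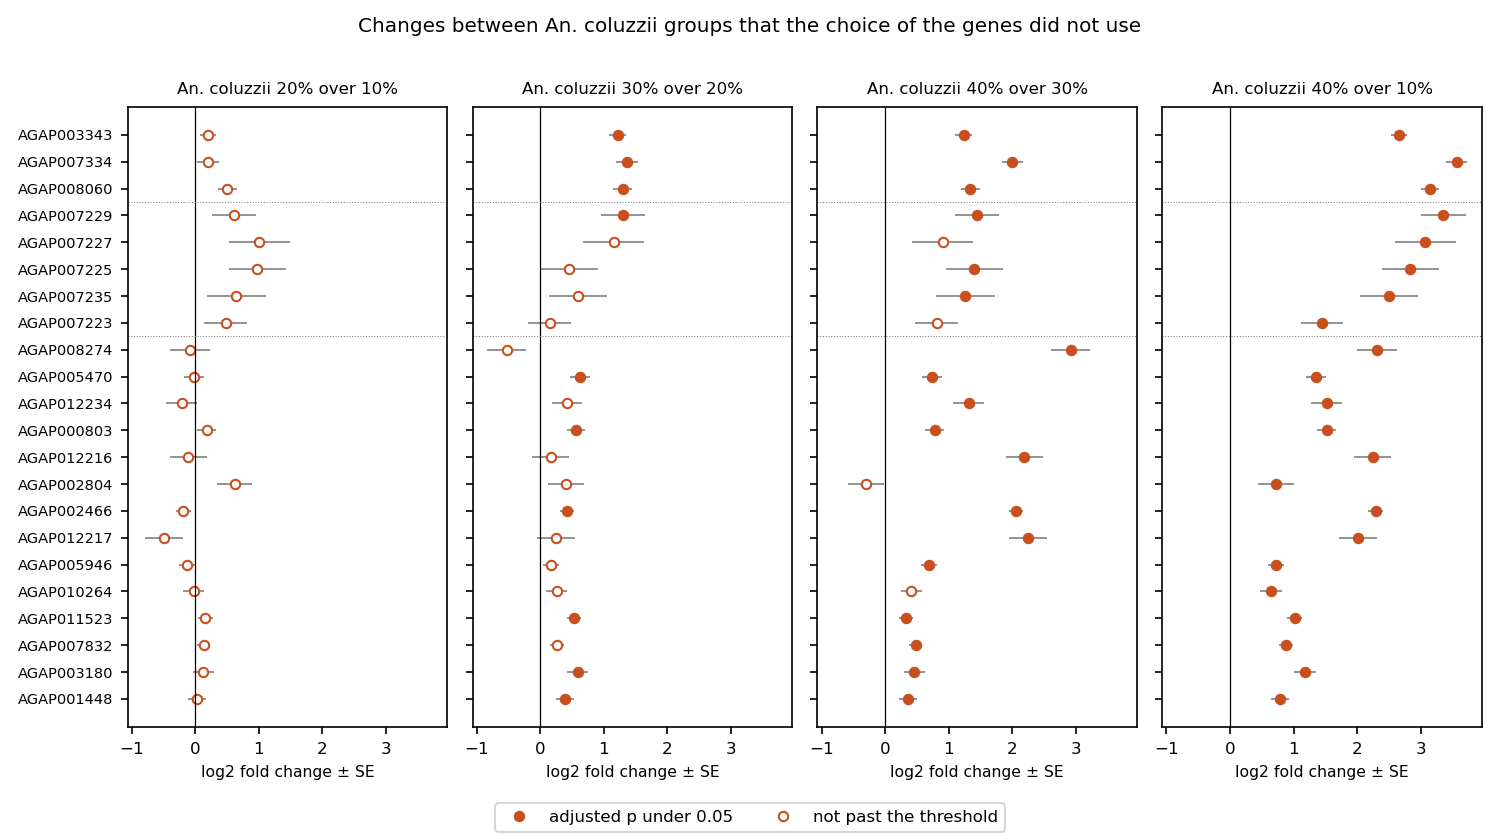
Log2 fold change with its SE for each of the 22 genes in the 4 comparisons between An. coluzzii groups, on the log2(CPM + 0.5) scale. Filled circles passed the threshold in limma (0, 10, 18 and 22 genes from left to right), and dotted lines part the 3 genes that were higher in An. merus, the 5 near 0 there and the other 14.

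The bound on An. merus was set within that species, and the minimum mean of 5 CPM was taken over both. In 9 of the 22 genes, the 5 near 0 in An. merus and 4 of the other 14, the An. merus mean was under 5 CPM, so they could reach the minimum only through An. coluzzii and their direction was in part fixed by the choice. At 10%, An. coluzzii over An. merus, 10 of 22 genes were higher and 6 lower in limma, against 18% of all genes higher and 18.7% lower. The 5 genes near 0 in An. merus were higher and the 3 with the higher level in An. merus lower, which follows from how those groups were drawn. Among the 10 genes outside those groups with an An. merus mean of at least 5 CPM, 3 were higher and 3 lower. AGAP007334 had a log2 difference of -4.66 ± 0.17 (SE; limma adjusted p = 3.1e-19) and AGAP008060 one of -4.44 ± 0.14 (SE; limma adjusted p = 2.4e-20). Of the other 14 genes, 5 were higher in An. coluzzii, AGAP002804 most, by 2.92 ± 0.28 (SE; limma adjusted p = 1.3e-09), and 3 were lower, among them AGAP012216 by -1.31 ± 0.29 and AGAP012217 by -1.01 ± 0.30 (SE; limma adjusted p = 0.00069 and 0.0087).

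At 40%, 19 of 22 genes were higher in An. coluzzii than in An. merus and 3 lower, against 34% of all genes higher and 33.4% lower, and 190 of the other 216 genes were higher and 6 lower. The 3 lower genes and 5 of the 19 are again those whose groups were drawn on the difference between the species. The other 14 genes were all higher, among them all 10 with an An. merus mean of at least 5 CPM. AGAP012216 had 17.9 ± 2.53 CPM in An. coluzzii at 40%, against 9.21 ± 0.353 CPM in An. merus. At 10% it had 3.36 ± 0.286 CPM in An. coluzzii, against 9.19 ± 2.06 CPM in An. merus (SD, n = 3 each). AGAP012216 and AGAP012217, which were lower in An. coluzzii at 10%, were higher at 40%, by 0.91 ± 0.29 and 1.20 ± 0.30 (SE; limma adjusted p = 0.0073 and 0.00088). AGAP001448 was lower by -0.37 at 10% and higher by 0.49 at 40% (limma adjusted p = 0.046 and 0.004), and these calls were lost at 10% without library B or C of An. coluzzii or B of An. merus, and at 40% without library C of An. coluzzii. Library totals ended both (limma adjusted p = 0.1 and 0.18). The call at 10% was also lost with the replicate letter as a block (limma adjusted p = 0.053), with a minimum mean of 5 CPM (limma adjusted p = 0.051) and with the 2 groups fitted alone (limma adjusted p = 0.12). AGAP008060 was lower by -1.15 ± 0.14 (SE; limma adjusted p = 7.3e-08) and AGAP007334 by -0.74 ± 0.17 (SE; limma adjusted p = 0.00038).

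For the genes near 0 in An. merus the fitted difference depends on the value added before the logarithm, so their pooled reads are given. At 10% AGAP007229 had 360 reads in the An. coluzzii libraries and 0 in the An. merus libraries, which is at least 89.2-fold higher against a floor of 3 reads over the group. At 40% it had 3519 reads against 0, at least 1158-fold higher. AGAP007227 had 5247 reads against 0 at 40%, at least 1726-fold higher, and AGAP007225 had 189 against 0 at 10%, at least 46.8-fold higher. AGAP007235 had a ratio of 8.38 (95% exact interval from counting 5.41 to 13.6) at 10%, with 248 reads against 22. At 40% its ratio was 103 (61.4 to 190), with 1467 reads against 14. These bounds and intervals hold counting error alone and leave out the spread between libraries. For AGAP007235 in An. merus at 10% the libraries ran from 0.122 to 0.973 CPM. On the fitted scale AGAP007223 differed at 10% by 5.49 ± 0.34 and AGAP007227 by 4.41 ± 0.48 (SE; limma adjusted p = 7.2e-14 and 1.6e-08), and at 40% AGAP007227 by 7.53 ± 0.48 and AGAP007229 by 7.07 ± 0.35 (SE; limma adjusted p = 9.5e-14 and 2.8e-16). The direction of these differences was fixed by how this group of genes was drawn, so the p-values are no support for it. Whether reads of An. merus can be assigned to these genes was not tested.

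Counts of all genes depended on the scaling of the libraries. When libraries were scaled by their totals, the median over all genes shifted by -0.28 at 40% over 10%, by -0.13 at 40% over 30% and by -0.26 for the species at 40%, on the log2 scale. Higher and lower genes then numbered 1809 and 5091 at 40% over 10% (3253 and 3651 with the deposited scaling), 48 and 133 at 20% over 10% (48 and 67), 645 and 2116 at 30% over 20% (1041 and 1365), 1312 and 3176 at 40% over 30% (2059 and 2333) and 2456 and 4778 for the species at 40% (3704 and 3637). Between the species at 10% the balance turned the other way, with 2122 higher and 1763 lower (1960 and 2038 with the deposited scaling) and a median shift of 0.04. None of the 14 single-gene results named for the comparisons changed sign under that scaling, and 16 of the 22 genes still met the rule.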

How the data were processed

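Poly(A) RNA of 36 pools of whole larvae was sequenced from TruSeq libraries, per the labels' protocols. The authors deposited 1 normalized signal per gene and library. By the file's name it is CPM scaled by TMM (trimmed mean of M values), after a filter and the removal of ribosomal RNA. The submitters' processing notes name edgeR, HTSeq, TopHat2, Bowtie2 and Trimmomatic, with no versions, genome build or annotation stated there. TMM takes the bulk of genes as unchanged, so differences are relative to it. All values (100%) were whole multiples of the worth of 1 read, within 0.001, and these multiples were taken as reads. In none of the 36 replicate pairs was the difference within sampling noise.

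The members and gene lists were chosen with earlier results of these data known. Members were found by applying the rule to the deposited values. The reference table holds 16199 An. merus genes, and 0 of them matched, so lists of pathway genes and cell type markers could not be used. The genes named were those with the largest and smallest differences, those nearest the bounds of the rule, and, in each comparison, up to 2 that rose most and 2 that fell most past the threshold without overlap between libraries. Others were chosen after their values were seen.

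Tests used limma 3.58.1 (R 4.3.3) on log2(CPM + 0.5), 1 model of 12 group means over 36 libraries, with moderated variances (empirical Bayes, mean trend). Tests were two-sided, adjusted by Benjamini-Hochberg over 10905 genes in each of 6 comparisons, which share libraries. Fold changes on this scale understate those of low genes. Comparisons with An. coluzzii at 0 or 50%, and those within An. merus, are given without tests since they chose the genes or share libraries with those that did. The procedure was tested on simulated reads with 1 common spread for every gene and changes only in genes with a mean over 5 CPM. That test does not cover genes near 0 in An. merus or genes whose libraries lie far apart. Of 15 pairs of libraries with the same letter in the groups compared, the correlations of their deviations ran from -0.34 to 0.43. In the comparison of An. coluzzii at 30% and 20% all 3 were over 0.1 (0.277, 0.165 and 0.364). The main fits still held no replicate block in any of the 6 comparisons, so their p-values leave that pairing out. With the letter as a block, 9 of 22 genes rose at 30% over 20%, against 10 in the main fit. Alternatives were a pseudocount of 0.1 or 2, a minimum mean of 5 CPM, quantile normalization, library totals, the letter as a block, fewer groups in the fit, edgeR 4.0.16 (quasi-likelihood), DESeq2 1.42.0 on the recovered reads, and each library left out. For the rule, a minimum of 1 CPM in 1 or more An. merus groups was added after seeing the data. Python 3.11.15 and matplotlib 3.10.9 drew the figures.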

Additional observations from a re-analysis of the deposited data

Results flagged for a closer look

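By group mean, AGAP007334 moved in opposite directions in the species at 40% over 10%. In An. coluzzii it had 18.5 ± 3.8 CPM at 40%, against 1.08 ± 0.0688 CPM at 10%. In An. merus it had 30.8 ± 3.12 CPM at 40%, against 39.5 ± 5.7 CPM at 10% (SD, n = 3 each). All An. coluzzii libraries were higher and all An. merus libraries lower at 40%. The An. merus means were 37.2 CPM at 0% and 35.4 CPM at 50%. Its libraries at 0% alone ran from 24.7 to 46.5 CPM, a range that spans those at 10 and 40%. On the L scale the change was 3.58 in An. coluzzii and -0.35 in An. merus, a difference of 3.94, which was not tested. Since the rule bounds the change in An. merus at each salinity, the small change there was fixed by the choice of the gene.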

How the results depend on the processing

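The number of genes in the set depended on the bounds of the rule. It was 52 with no minimum mean, 8 with a mean of at least 20 CPM and 116 with a bound of 1 on the change in An. merus, against 22. It was 20 to 36 when a library was left out, and 13 of the 22 genes met the rule in all 24 such choices. With library totals it was 17 (16 of the 22 kept), with quantile normalization 23 (15 kept), and 17 when at least 1 CPM was asked in 1 or more An. merus groups. With a pseudocount of 0.1 in the rule it was 18 (17 of the 22 kept), and with a pseudocount of 2 it was 20 (18 kept).

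At 20% over 10% the count of genes past the threshold was 1 with library totals and 1 with DESeq2, and 0 to 1 when a library was left out, the 1 gene being AGAP008060 each time. The other counts stayed within 1.5 times their value. They ran from 20 to 22 at 40% over 10% (21 to 22 with a library left out), from 8 to 11 at 30% over 20% (7 to 10), from 15 to 20 at 40% over 30% (13 to 18), from 15 to 16 for the species at 10% and from 21 to 22 for the species at 40%. With the replicate block they were 22 at 40% over 10%, 0 at 20% over 10%, 9 at 30% over 20%, 15 at 40% over 30%, 15 for the species at 10% and 22 for the species at 40%. Of 210 alternatives to the 14 named single-gene results, 207 kept direction and call, 3 lost the call (AGAP007229 at 30% over 20%, given above) and 0 changed sign. Of all genes, 115 were called at 20% over 10%, against 181 with library totals and 375 with DESeq2.

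Depth limited the genes near 0 in An. merus, where a library without a read allows up to 0.348 CPM, and 3 libraries a group limit the call of single steps in genes whose libraries lie far apart. The cause of the changes with the setting was not tested.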
